A study of Mus musculus with 9 samples.

Results

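The 43 genes described here encode proteins that the liver secretes into plasma: carriers such as albumin and transferrin, the fibrinogen chains, clotting factors, contact system proteins, anticoagulants, and the proteins of complement. They were listed by name and function, with earlier results of these data known, and were followed through 9 bulk RNA-Seq libraries of whole mouse liver. All 43 passed the filter on low counts, out of 15024 genes tested and 43346 genes listed. The lowest count of any of them in any library was 950 reads.

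All mice were male C57/BL6, aged 12 weeks, and underwent 70% partial hepatectomy. Baseline was the specimen resected at 0 h from 3 vehicle-treated mice, and the other libraries came from what was left of the liver (the remnant) 40 h after surgery, in 3 mice given vehicle and 3 given NSC. NSC (NSC87877) is a small molecule that inhibits the phosphatase SHP2 and, as the study states, SHP1 as well. Each injection held 7.5 mg/kg and followed the last by 12 h, the first one coming 12 h ahead of surgery by the labels, and vehicle was normal saline. The baseline mice had therefore already received vehicle. Baseline tissue after NSC was not analysed here, and the 3 baseline livers served for both treatments. Because those livers are shared, the 2 comparisons with baseline are not independent of each other.

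Libraries held between 23997363 and 42887589 counted reads. Levels are given below as CPM, the counts of a gene per 1e+06 reads of its library after TMM scaling, which corrects for library composition, and the scaling factors lay between 0.900 and 1.1. Differences are log2 fold changes with their standard error (SE) from edgeR's quasi-likelihood test. A gene is said to have changed, risen or fallen where its p-value, adjusted over all genes tested, was under 0.05. At the deposited coordinates 15 of the 43 genes overlap another listed gene (Ttr, Trf, F5, Fgg, Serpinc1, Serpind1, Kng2, Klkb1, C2, C3, Hc, C8a, C8g, Cfb and Masp2), and since it is not stated whether the counting used strand, their values may include or lack shared reads. The summed level of 8 hepatocyte markers lay between 24016 and 26311 CPM at baseline, between 17734 and 23448 CPM after vehicle and between 17270 and 17950 CPM after NSC, so the tissue was liver by its markers in every library. In bulk tissue, fewer cells of a type and less RNA per cell cannot be told apart.

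Hepatocytes make most plasma proteins. Clotting proceeds through a cascade of serine proteases, which ends when thrombin cuts fibrinogen into fibrin. Several of these proteases need a vitamin K-dependent modification to function. Antithrombin and protein C with its cofactor protein S hold the cascade in check. Complement is a second cascade of plasma proteases, which starts through antibodies, through mannose-binding lectins or by spontaneous turnover of C3, and ends in the membrane attack complex. During an acute phase response the liver raises the messages of some of these proteins, among them fibrinogen and hemopexin, and lowers others, such as albumin and transthyretin.

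The genes as a whole took up a larger part of the library 40 h after hepatectomy. At baseline they held 17.6%, 17.5% and 18.1% of all counted reads (17.7% ± 0.291, SD, n = 3). After vehicle the share was 23.0%, 27.2% and 25.5% (25.2% ± 2.09), and after NSC it was 22.8%, 23.7% and 21.6% (22.7% ± 1.07). Every remnant lay above every baseline liver. With 3 livers against 3 the smallest p an exact two-sided permutation test allows is 0.1, which both comparisons with baseline reached (adjusted p = 0.15). The 2 treatments overlapped, with the lowest vehicle-treated liver between the NSC-treated livers (exact permutation p = 0.2). Albumin alone took 8.91% ± 0.379 of reads at baseline, 8.78% ± 0.745 after vehicle and 9.18% ± 0.615 after NSC, so its share did not follow the total. Without albumin, the other genes held 8.82% ± 0.330 at baseline, 16.5% ± 1.39 after vehicle and 13.5% ± 1.68 after NSC. Here the treatments did not overlap, at 15.1%, 17.9% and 16.4% after vehicle against 13.9%, 15.0% and 11.7% after NSC (exact two-sided permutation p = 0.1, the smallest this design allows). The 3 fibrinogen chains rose from 1.59% ± 0.0475 of all reads to 4.38% ± 0.760 after vehicle and 3.61% ± 0.918 after NSC.

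**Figure D1:**
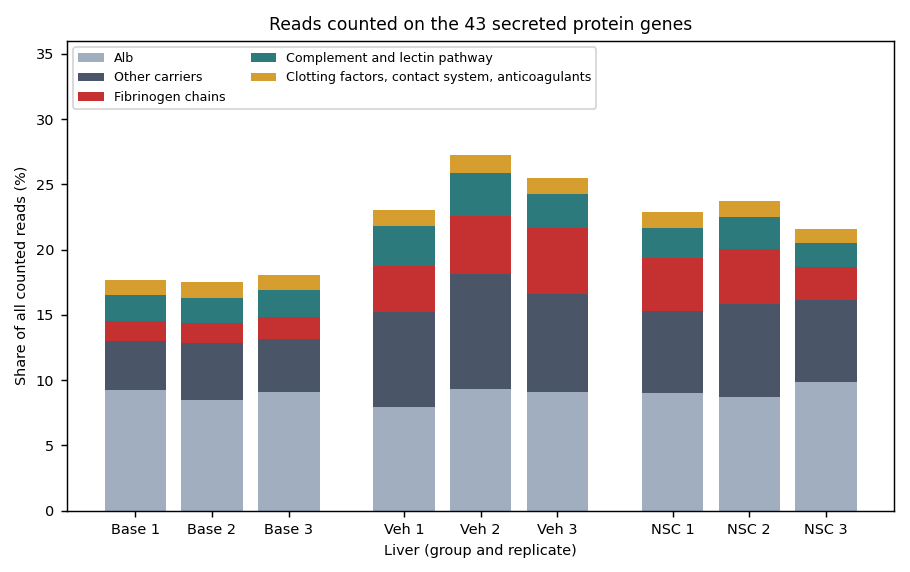
Share of all counted reads (%, vertical axis) taken by the 43 secreted protein genes in each of the 9 livers, stacked by group of proteins; each bar is 1 library. The bars of the 6 remnants reach 21.6% to 27.2% and those of the 3 baseline livers 17.5% to 18.1%, while the albumin segment stays between 7.93% and 9.86%.

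In the vehicle-treated mice 11 of the 43 genes had risen, 3 had fallen and 29 did not pass the test 40 h after hepatectomy. Over all genes tested 12.7% were called higher and 11% lower in that comparison. In the NSC-treated mice 11 had risen, 11 had fallen and 21 did not pass, where 18.2% of all genes tested were called higher and 16.5% lower. The median log2 fold change of the 43 was 0.20 after vehicle and 0.01 after NSC, against 0.01 in both comparisons over all genes tested. The genes that rose in both treatments were Ahsg, Hpx, Fga, Fgb, Fgg, Pros1, Kng1, Kng2 and C4bp. Those that fell in both were Proc, Klkb1 and C8g. Where the log2 fold change also had to lie beyond 1.5, Hpx and Fga remained higher after vehicle and Hpx after NSC, and no gene remained lower. This stricter rule called 5.03% of all genes higher and 2.19% lower after vehicle and 5.38% and 2.75% after NSC. The groups did not overlap for 14 genes higher and 9 lower after vehicle, where 24.2% and 22% of all genes were apart in those directions, and for 12 higher and 14 lower after NSC, where 24% and 23.1% were.

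These counts moved with the analysis. Correcting each library for GC content gave 11 genes higher and 7 lower after vehicle, and 6 higher and 12 lower after NSC. The correction called 11.4% of all genes higher and 16.6% lower after vehicle, and 12.8% and 17.8% after NSC. The longest transcripts of the 11 genes that rose after NSC had a median GC content of 44.1%, those of the 11 that fell had 53.4%, and all genes tested had 49.7%. DESeq2 gave 13 higher and 7 lower after vehicle, where it called 14.3% of all genes higher and 13.8% lower, and 12 and 12 after NSC, where it called 19.6% and 18.5%. Scaling by library size alone gave 11 higher and 5 lower after vehicle and 12 higher and 9 lower after NSC. It called 12.4% of all genes higher and 10% lower after vehicle, and 22.6% and 11.9% after NSC, where the median over all genes tested was 0.15. Leaving out single libraries moved the genes called lower after vehicle most: 1 was called without baseline replicate 1 or 3 or vehicle replicate 1 or 3, 5 without vehicle replicate 2, and 7 without NSC replicate 1, which enters the shared estimate of the spread. The share of all genes called lower moved too, to between 6.77% and 7.28% in the 4 fits with 1 call, to 8.45% without vehicle replicate 2 and to 13.7% without NSC replicate 1. The median after vehicle was 0.07 without vehicle replicate 3.

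**Figure D2:**
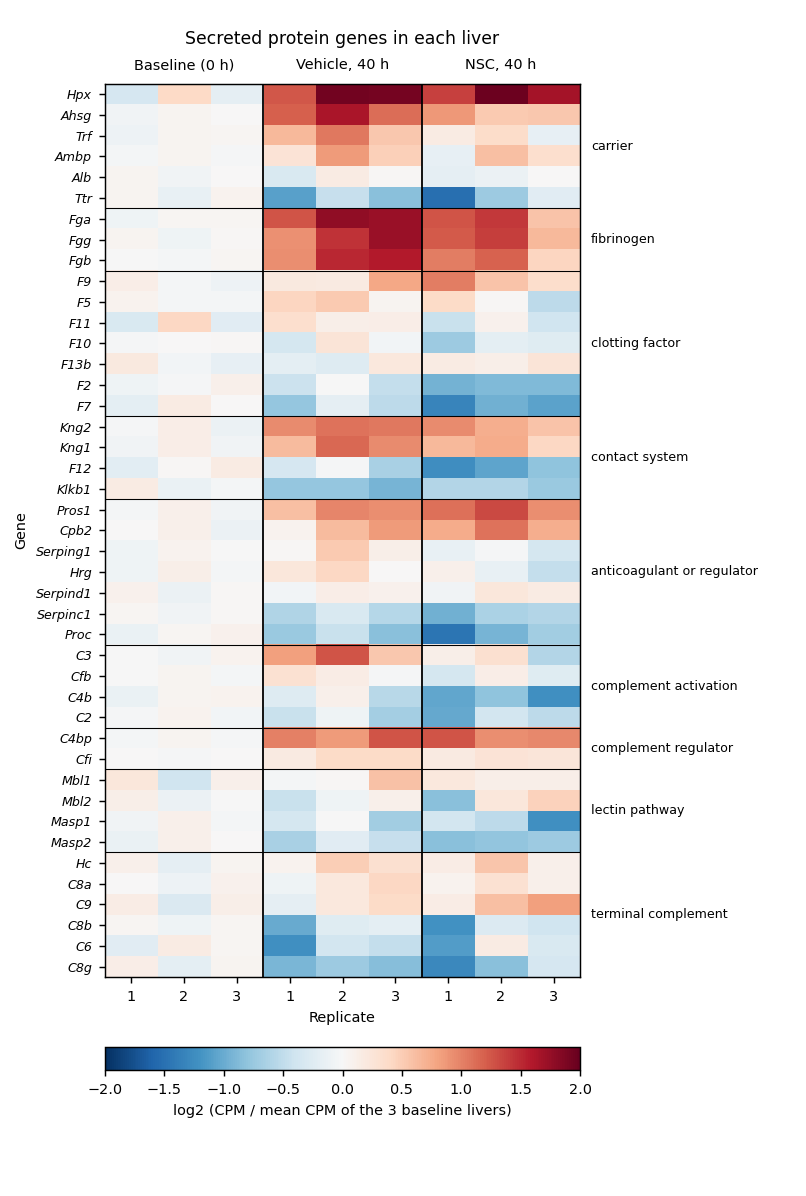
Level of each of the 43 genes (rows, grouped by role) in each liver (columns, replicates 1 to 3 of each group), as log2 of its CPM over the mean CPM of the 3 baseline livers. The rows of Hpx, Fga, Fgb and Fgg are red in all 6 remnants, and those of Klkb1, Proc and C8g are blue in all 6.

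Among the carriers, hemopexin, which binds free heme, showed the largest rise of the 43 genes in both comparisons. Hpx was at 5669, 9479 and 6358 CPM at baseline, 16917, 27286 and 27039 CPM in the vehicle-treated mice and 18445, 27848 and 22819 CPM in the NSC-treated mice. All 6 remnants lay above all baseline livers (log2 fold change 1.73, SE 0.28, adjusted p = 0.00117 after vehicle, and log2 fold change 1.68, SE 0.28, adjusted p = 0.000918 after NSC). By level per gene length (FPKM), Hpx moved from the fifth place among the 43 genes at baseline, at 4680.3 ± 1325 FPKM (SD, n = 3), to second place in both groups of remnants, at 15462 ± 2991 FPKM after vehicle and 16486 ± 2748 FPKM after NSC. Ahsg, which encodes fetuin-A, a carrier that keeps calcium phosphate in solution, was at 7051, 7691 and 7409.6 CPM at baseline, 16866, 22842 and 16062 CPM in the vehicle-treated mice and 13500.0, 10593 and 10778 CPM in the NSC-treated mice. Its groups did not overlap at any point, with the vehicle-treated mice highest and the NSC-treated mice between them and baseline. The rise was log2 fold change 1.33, SE 0.21, adjusted p = 0.00101 after vehicle and log2 fold change 0.65, SE 0.20, adjusted p = 0.0263 after NSC. Leaving out any baseline liver or NSC replicate 1 raised the NSC value above 0.05, with an adjusted p of at most 0.0937.

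Transferrin, the iron carrier, and albumin did not follow hemopexin in both treatments. Trf was at 17088, 19130.4 and 18946 CPM in the resection specimens, 28739, 38015 and 26668 CPM after vehicle and 20583, 23712 and 16366 CPM after NSC. It had risen after vehicle (log2 fold change 0.76, SE 0.22, adjusted p = 0.0241), a call that was lost when any baseline liver or vehicle replicate 2 was left out (adjusted p up to 0.101). After NSC the livers lay on both sides of the baseline range, and the difference was 0.14 (SE 0.22, adjusted p = 0.651). The values for Alb were 95847, 87929.8 and 93132 CPM in the resection specimens, 75127, 103465 and 93898 CPM after vehicle and 81425, 84835 and 92637 CPM after NSC. The 3 groups overlapped, and albumin kept the first place by FPKM in each of them. Its difference was -0.02 (SE 0.20, adjusted p = 0.951) after vehicle and -0.10 (SE 0.20, adjusted p = 0.738) after NSC. Ttr, for the thyroid hormone and retinol carrier transthyretin, was at 6858, 5963 and 6939 CPM in the resection specimens, 3086, 4796 and 3678 CPM after vehicle and 2324, 3979 and 5628 CPM after NSC. All 6 remnants lay below baseline, but the fold changes of -0.77 (SE 0.29, adjusted p = 0.0699) after vehicle and -0.73 (SE 0.29, adjusted p = 0.0677) after NSC did not pass the test. They passed in 8 of 17 alternatives after vehicle and in 5 after NSC, DESeq2 and the GC correction among them in both (adjusted p from 0.0157 to 0.207 and from 0.0139 to 0.165 over all alternatives). Ttr moved from the third place by FPKM to ninth and seventh. Ambp, the precursor of the small carrier alpha-1-microglobulin and of the protease inhibitor bikunin, lay between 2503 and 2686 CPM at baseline, 3101 and 4637 CPM after vehicle and 2294 and 3922 CPM after NSC, and passed in neither comparison, though after vehicle it did with only the 2 groups compared or without NSC replicate 1 (adjusted p from 0.0457 to 0.288 over all alternatives).

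Fibrinogen is built from 3 chains encoded by neighbouring genes. Fgg, Fga and Fgb lie within 42.1 kb on chromosome 3 (83007724 to 83049863, coordinates as deposited), Fgg and Fga on the plus strand and Fgb on the minus strand. The sequences before their start sites are shown because the 3 messages rose together. They are RefSeq sequences of GRCm38.p6, chr3:83025903-83026075 for Fga (plus strand, ending before the deposited gene start), chr3:83049864-83050113 for Fgb (minus strand) and chr3:83007474-83007723 for Fgg (plus strand), written 5′ to 3′ on the strand of the gene. Capitals mark matches, on either strand, to TTCNNNGAA (the form of a STAT site), CTGGGAA (the core of an IL-6 response element), GTTAAT (part of an HNF1 site) and TTGCNNCAA (the form of a C/EBP site).
Fga: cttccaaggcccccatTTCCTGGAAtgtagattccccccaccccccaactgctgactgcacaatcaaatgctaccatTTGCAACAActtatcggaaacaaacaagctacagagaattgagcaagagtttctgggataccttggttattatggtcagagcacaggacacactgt
Fgb: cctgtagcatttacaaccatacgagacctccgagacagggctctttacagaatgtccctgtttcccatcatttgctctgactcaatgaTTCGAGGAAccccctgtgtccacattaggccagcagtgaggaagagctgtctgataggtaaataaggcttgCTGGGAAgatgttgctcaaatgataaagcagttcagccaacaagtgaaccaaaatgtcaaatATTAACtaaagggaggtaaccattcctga
Fgg: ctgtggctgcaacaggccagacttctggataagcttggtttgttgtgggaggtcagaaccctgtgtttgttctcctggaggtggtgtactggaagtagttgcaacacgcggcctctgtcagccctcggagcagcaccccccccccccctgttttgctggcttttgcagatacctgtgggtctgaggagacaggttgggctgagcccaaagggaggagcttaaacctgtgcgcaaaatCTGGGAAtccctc

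RefSeq windows were matched for 33 of the 43 genes, and motifs were counted in the 250 bases before each annotated RefSeq start. TTCNNNGAA stood in 6 of the 33 (18.2%) and in 7.02% of 32851 mouse windows of that length. CTGGGAA stood in 4 of the 33 (F9, Fgb, Fgg and Masp2) and in 9.10% of all windows, and its matches can share letters with those of TTCNNNGAA. GTTAAT stood in 8 of the 33 and in 6.43% of all windows, TTGCNNCAA in 2 and in 1.74%, and the TATA box TATAAA in 2 and in 12.4%. These counts describe letters in the windows, not bound sites. Within the printed stretches, Fga held matches to TTCNNNGAA and TTGCNNCAA, Fgb to those of the STAT, IL-6 and HNF1 forms, and Fgg to that of the IL-6 form. The HNF1 match of Fga lay in the bases of its window that are not printed.

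The fibrinogen chains rose in both treatments. Fga was at 5348, 5789 and 5824 CPM at baseline, 13546, 19268 and 18791 CPM in the vehicle-treated mice and 13448, 15039 and 8360.2 CPM in the NSC-treated mice. Fgb was at 5958, 5873 and 6212 CPM at baseline, 11447, 17143 and 18128 CPM in the vehicle-treated mice and 12272, 13583 and 8134 CPM in the NSC-treated mice. Fgg was at 4964, 4526 and 4884 CPM at baseline, 9045, 12989 and 15778 CPM in the vehicle-treated mice and 11257, 12447 and 7502 CPM in the NSC-treated mice. For each chain every remnant lay above every baseline liver, vehicle replicate 1 was the lowest of its group and NSC replicate 3 the lowest of all 6 remnants. The rise after vehicle was log2 fold change 1.61, SE 0.25, adjusted p = 0.000961 for Fga, log2 fold change 1.37, SE 0.24, adjusted p = 0.00222 for Fgb and log2 fold change 1.40, SE 0.25, adjusted p = 0.0024 for Fgg. After NSC it was log2 fold change 1.12, SE 0.24, adjusted p = 0.00433 for Fga, log2 fold change 0.91, SE 0.24, adjusted p = 0.0121 for Fgb and log2 fold change 1.12, SE 0.25, adjusted p = 0.005 for Fgg. Under the GC correction the NSC values were 0.50 for Fgb (adjusted p = 0.113) and 0.64 for Fgg (adjusted p = 0.0503), while Fga stayed past the threshold. The call of Fgb after NSC was also lost without NSC replicate 2. Over all alternatives the adjusted p after NSC lay between 0.000562 and 0.113 for Fgb and between 3.91e-05 and 0.0503 for Fgg. By FPKM, Fgb stood at 0.596 to 0.725 of Fgg in the 9 livers. Fga stood at 1.14 to 1.25 times Fgb at baseline and at 1.30 to 1.5 times in the remnants, with no overlap.

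**Figure D3:**
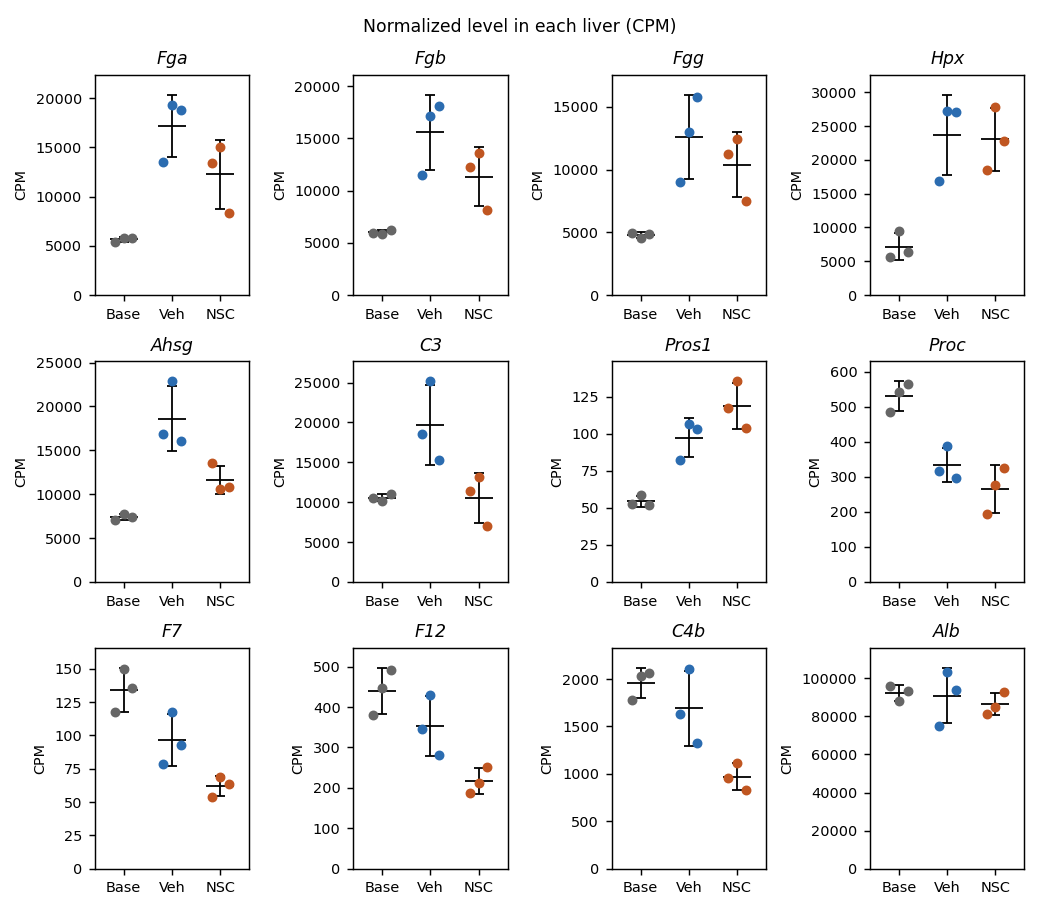
CPM after TMM scaling (vertical axis, from 0) of 12 genes in each of the 3 baseline livers (Base) and the 3 livers of vehicle-treated (Veh) and NSC-treated (NSC) mice at 40 h; points are livers, the horizontal mark is the mean and the bar 1 SD. The 3 fibrinogen chains, Hpx, Ahsg and Pros1 lie above baseline in all 6 remnants, Proc lies below it in all 6, and C3 lies above it in the 3 vehicle-treated mice.

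None of the 7 clotting factors had changed after vehicle, where 12.7% of all genes tested were called higher and 11% lower. After NSC 2 had fallen and 1 had risen, where 18.2% of all genes tested were called higher and 16.5% lower. F2 encodes prothrombin, the precursor of thrombin, and was at 1927, 2005 and 2175 CPM at baseline, 1504, 2033 and 1458 CPM in the vehicle-treated mice and 1063, 1108 and 1105 CPM in the NSC-treated mice. The NSC-treated livers lay within 1063 to 1108 CPM, below all other livers, and the gene had fallen (log2 fold change -0.90, SE 0.18, adjusted p = 0.00278). After vehicle the difference was -0.29 (SE 0.18, adjusted p = 0.262). F7, the factor that starts clotting together with tissue factor, was at 117, 149.7 and 135 CPM at baseline, 78.7, 118 and 93.2 CPM in the vehicle-treated mice and 53.5, 69.0 and 63.7 CPM in the NSC-treated mice. Here too each NSC-treated liver was below each of the other livers (log2 fold change -1.11, SE 0.18, adjusted p = 0.000848 after NSC). The vehicle-treated mice overlapped with baseline, at -0.47 (SE 0.18, adjusted p = 0.0704). That difference passed in 6 of 17 alternatives, among them DESeq2, library size alone and the GC correction (adjusted p from 0.0250 to 0.253 over all alternatives). F9, the factor missing in hemophilia B, went the other way, at 161, 143 and 137 CPM at baseline, 169, 167 and 252 CPM in the vehicle-treated mice and 299, 219 and 188 CPM in the NSC-treated mice. It had risen after NSC (log2 fold change 0.68, SE 0.21, adjusted p = 0.0268) with all livers above baseline. This call was lost without baseline replicate 2 or 3 or NSC replicate 1. The GC correction took the value to 0.03 (adjusted p = 0.901; 0.0120 to 0.901 over all alternatives), and F9 had the lowest GC content of the 43 genes, 39.0%.

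The remaining clotting factors passed in neither comparison. F5, the cofactor of factor Xa, was 0.35 (SE 0.22, adjusted p = 0.274) after vehicle and 0.01 (SE 0.22, adjusted p = 0.988) after NSC. F10, the protease at which both arms of the cascade meet, was -0.03 (SE 0.20, adjusted p = 0.942) and -0.37 (SE 0.20, adjusted p = 0.163). F11, an amplifier of thrombin formation, was 0.20 (SE 0.21, adjusted p = 0.516) and -0.23 (SE 0.21, adjusted p = 0.407). F13b, the carrier subunit of the factor that cross-links fibrin, was -0.06 (SE 0.17, adjusted p = 0.82) and 0.18 (SE 0.17, adjusted p = 0.427). F7 and F10 are neighbours on chromosome 8 (13026034 to 13056676), and F7 fell after NSC while F10 did not pass.

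Among the contact system genes, both kininogen genes rose and the prekallikrein gene fell in both treatments. Kng1 and Kng2 encode kininogens, from which bradykinin is released. Kng1 was at 1793, 2058 and 1804 CPM at baseline, 2928, 4176 and 3611 CPM in the vehicle-treated mice and 2958, 3168 and 2510.4 CPM in the NSC-treated mice. Kng2 was at 279, 314 and 263 CPM at baseline, 548, 606 and 593 CPM in the vehicle-treated mice and 548, 471 and 426 CPM in the NSC-treated mice. All remnants lay above baseline for both genes, which rose after vehicle (log2 fold change 0.92, SE 0.19, adjusted p = 0.00502 and log2 fold change 1.03, SE 0.16, adjusted p = 0.00106, respectively) and after NSC (log2 fold change 0.61, SE 0.19, adjusted p = 0.0266 and log2 fold change 0.76, SE 0.16, adjusted p = 0.00386). The call of Kng1 after NSC was lost under the GC correction (adjusted p = 0.118; 0.00285 to 0.118 over all alternatives) and without baseline replicate 1, baseline replicate 3 or NSC replicate 2. Reads of these close paralogs can be split between them by the counting, so the separate values are uncertain. Klkb1, which encodes plasma prekallikrein and whose deposited identifier carries another gene name in the GENCODE M21 annotation, was at 164, 134 and 142 CPM in the resection specimens, 85.3, 85.4 and 76.8 CPM after vehicle and 97.2, 97.4 and 87.9 CPM after NSC. It fell in both treatments with no overlap with baseline (log2 fold change -0.83, SE 0.14, adjusted p = 0.00155 after vehicle, and log2 fold change -0.64, SE 0.14, adjusted p = 0.0043 after NSC). F12, the factor that prekallikrein activates in turn, was at 380.2, 446 and 492 CPM in the resection specimens, 346, 431 and 281 CPM after vehicle and 187, 213 and 251 CPM after NSC. Only after NSC did it pass the test (log2 fold change -1.02, SE 0.20, adjusted p = 0.00224), against -0.32 (SE 0.19, adjusted p = 0.259) after vehicle; its GC content, 58.5%, was the highest of the 43 genes, and under the GC correction it stayed past the threshold at -0.60.

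Of the 7 anticoagulants and regulators, protein S and protein C moved in opposite directions. Pros1, for the cofactor of activated protein C, was at 52.6, 58.4 and 51.9 CPM at baseline, 82.1, 107 and 103 CPM in the vehicle-treated mice and 117, 135 and 104 CPM in the NSC-treated mice. Each remnant lay above each baseline liver (log2 fold change 0.84, SE 0.15, adjusted p = 0.00267 after vehicle, and log2 fold change 1.13, SE 0.16, adjusted p = 0.000344 after NSC). Proc, for protein C itself, was at 484, 543 and 565 CPM at baseline, 316, 389 and 297 CPM in the vehicle-treated mice and 193, 277 and 326 CPM in the NSC-treated mice. Each remnant lay below baseline (log2 fold change -0.67, SE 0.20, adjusted p = 0.0312 after vehicle, and log2 fold change -1.0, SE 0.20, adjusted p = 0.00306 after NSC), though the vehicle call was lost when any baseline liver, vehicle replicate 1 or vehicle replicate 3 was left out (adjusted p up to 0.114). By FPKM the ratio of Pros1 to Proc was 0.0394 ± 0.00364 at baseline, 0.113 ± 0.0182 after vehicle and 0.181 ± 0.0554 after NSC, and the remnants did not overlap with baseline. By FPKM Pros1 was the lowest of the 43 genes at baseline.

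After NSC the antithrombin gene fell and that of the fibrinolysis inhibitor TAFI rose, and neither passed after vehicle. Serpinc1, for antithrombin, was at 2605, 2432 and 2597 CPM in the resection specimens, 1684, 2055 and 1711 CPM after vehicle and 1314, 1639.6 and 1701 CPM after NSC. All 6 remnants were below baseline, with -0.49 (SE 0.18, adjusted p = 0.0637) after vehicle and -0.71 (SE 0.18, adjusted p = 0.00851) after NSC. Cpb2, for TAFI, which slows the removal of fibrin, was at 363, 391 and 334 CPM in the resection specimens, 379, 562 and 652 CPM after vehicle and 608, 768 and 599 CPM after NSC. NSC-treated livers lay above all baseline livers (log2 fold change 0.86, SE 0.21, adjusted p = 0.00758), and vehicle replicate 1 lay within the baseline range (log2 fold change 0.55, SE 0.21, adjusted p = 0.0729). After vehicle Serpinc1 passed in 5 of 17 alternatives, among them DESeq2 and the GC correction (adjusted p from 0.00709 to 0.178 over all alternatives), and Cpb2 with DESeq2 and without vehicle replicate 1 (adjusted p from 0.0233 to 0.250). The GC correction took the NSC value of Cpb2 to 0.45 (adjusted p = 0.0896; 0.000443 to 0.0896 over all alternatives). The direct differences between the treatments were -0.23 (SE 0.18, adjusted p = 0.491) for Serpinc1 and 0.31 (SE 0.21, adjusted p = 0.421) for Cpb2. Cpb2 moved from 25th place by FPKM at baseline to 17th after vehicle and 13th after NSC. Serpind1 (heparin cofactor II), Serping1 (C1 inhibitor) and Hrg (histidine-rich glycoprotein) passed in neither comparison, with log2 fold changes from -0.17 to 0.24.

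Among the genes of complement activation, C3 rose after vehicle, and C4b and C2 fell after NSC. C3, the protein on which all routes of activation meet, was at 10522, 10098 and 11021 CPM at baseline, 18576, 25144 and 15316 CPM in the vehicle-treated mice and 11443, 13155 and 7038 CPM in the NSC-treated mice. After vehicle it had risen (log2 fold change 0.90, SE 0.26, adjusted p = 0.0252), with no overlap with baseline. After NSC the mean was the same as at baseline, 10546 ± 3156 CPM (SD, n = 3) against 10547 ± 462 CPM, and the livers lay on both sides of it. The vehicle call of C3 was lost when any baseline liver or vehicle replicate 2 was left out (adjusted p up to 0.0903). C4b and C2 form the C3 convertase of the classical and lectin routes. C4b was at 1775, 2031 and 2061 CPM at baseline, 1634, 2108 and 1328 CPM in the vehicle-treated mice and 955, 1117 and 834 CPM in the NSC-treated mice. Its NSC-treated livers were below all the others (log2 fold change -1.01, SE 0.21, adjusted p = 0.00299), and its vehicle-treated livers overlapped with baseline (log2 fold change -0.21, SE 0.20, adjusted p = 0.488). Reads of C4b and its close paralog C4a can be split between them by the counting. C4a was -0.13 (SE 0.30, adjusted p = 0.784) after vehicle and -0.67 (SE 0.30, adjusted p = 0.107) after NSC. Between the treatments it was -0.54 (SE 0.30, adjusted p = 0.343). C2 was at 144, 155 and 141 CPM at baseline, 108, 138 and 91.3 CPM in the vehicle-treated mice and 71.8, 113 and 102 CPM in the NSC-treated mice. Its fall after NSC (log2 fold change -0.62, SE 0.20, adjusted p = 0.0283) did not pass when libraries were scaled by size alone, or when any baseline liver or NSC replicate 1 was left out, and over all alternatives its adjusted p lay between 0.0120 and 0.0729. Cfb, which forms the alternative convertase, was 0.15 (SE 0.18, adjusted p = 0.599) after vehicle and -0.14 (SE 0.18, adjusted p = 0.592) after NSC. C4b, Cfb and C2 lie within 169.9 kb on chromosome 17 (34728380 to 34898265).

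Proteases of the lectin pathway fell after NSC and its recognition proteins did not pass. Masp1 was at 83.0, 93.1 and 84.8 CPM in the resection specimens, 68.0, 86.2 and 53.6 CPM after vehicle and 67.3, 60.6 and 37.2 CPM after NSC. Masp2, which cuts C4 and C2, was at 306, 359 and 336 CPM in the resection specimens, 213, 284 and 243 CPM after vehicle and 187, 192 and 202 CPM after NSC. The NSC-treated livers were below baseline for both genes, with no overlap (log2 fold change -0.66, SE 0.22, adjusted p = 0.0372 for Masp1, and log2 fold change -0.79, SE 0.16, adjusted p = 0.00268 for Masp2). The call of Masp1 was lost in 7 of 17 alternatives (adjusted p up to 0.0937), with scaling by library size alone and without any baseline liver, vehicle replicate 1, NSC replicate 2 or NSC replicate 3. After vehicle neither passed (log2 fold change -0.33, SE 0.22, adjusted p = 0.307, and log2 fold change -0.43, SE 0.16, adjusted p = 0.0609), though Masp2 did in 4 of 17 alternatives (adjusted p from 0.0155 to 0.224). Mbl2, a mannose-binding lectin, was at 448, 378 and 409 CPM in the resection specimens, 304, 389 and 441 CPM after vehicle and 232, 482 and 566 CPM after NSC. Its NSC-treated livers spread on both sides of baseline, and the differences were -0.12 (SE 0.28, adjusted p = 0.784) after vehicle and 0.05 (SE 0.28, adjusted p = 0.905) after NSC. Mbl1 was 0.22 (SE 0.21, adjusted p = 0.47) and 0.15 (SE 0.21, adjusted p = 0.606).

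Of the 6 terminal complement genes, C8g fell in both treatments and the others passed in neither. C8g, the small chain of C8 that is structurally a lipocalin, was at 464, 368 and 438 CPM at baseline, 224, 257 and 234 CPM in the vehicle-treated mice and 173, 238 and 336 CPM in the NSC-treated mice. All remnants lay below baseline (log2 fold change -0.83, SE 0.22, adjusted p = 0.0171 after vehicle, and log2 fold change -0.77, SE 0.22, adjusted p = 0.0177 after NSC), and both calls were lost without baseline replicate 1 or 3, that after vehicle also without vehicle replicate 1 or 3, and that after NSC without NSC replicate 2 (adjusted p up to 0.0646 and 0.0640, respectively). The other chains of C8 were 0.20 (SE 0.18, adjusted p = 0.457) and 0.16 (SE 0.18, adjusted p = 0.507) for C8a and -0.44 (SE 0.26, adjusted p = 0.246) and -0.57 (SE 0.26, adjusted p = 0.111) for C8b. The ratio of C8a to C8g by FPKM was 0.963 ± 0.0797 at baseline, 1.95 ± 0.325 after vehicle and 1.95 ± 0.596 after NSC, with each remnant above each baseline liver. Hc encodes C5, whose cleavage begins the membrane attack complex, and was at 1211, 1002 and 1176 CPM at baseline, 1190.3, 1589 and 1413 CPM in the vehicle-treated mice and 1250.0, 1657 and 1206 CPM in the NSC-treated mice. Its groups overlapped (log2 fold change 0.31, SE 0.19, adjusted p = 0.268 after vehicle, and log2 fold change 0.28, SE 0.19, adjusted p = 0.277 after NSC). C6 and C9, both parts of the pore, were -0.65 (SE 0.31, adjusted p = 0.151) and -0.32 (SE 0.31, adjusted p = 0.441) for C6 and 0.16 (SE 0.22, adjusted p = 0.649) and 0.55 (SE 0.22, adjusted p = 0.0733) for C9. C6 passed after vehicle in 3 of 17 alternatives (adjusted p from 0.0187 to 0.387), and C9 after NSC in 3 (adjusted p from 0.0187 to 0.724). Of the complement regulators, C4bp, for the C4b-binding protein that restrains the classical and lectin routes, was at 727, 776 and 728 CPM in the resection specimens, 1501, 1347 and 1776 CPM after vehicle and 1771, 1417 and 1449 CPM after NSC. It rose after vehicle (log2 fold change 1.05, SE 0.18, adjusted p = 0.00158) and after NSC (log2 fold change 1.06, SE 0.18, adjusted p = 0.00103), with all remnants above baseline. No alternative lost either call of C4bp, whose GC content was 39.8%. Over the alternatives its value lay between 0.80 and 1.14 after vehicle (adjusted p up to 0.0118). After NSC it lay between 0.45 and 1.20 (adjusted p up to 0.0439). Cfi, a protease that inactivates C3b and C4b, was 0.32 (SE 0.15, adjusted p = 0.143) after vehicle and 0.23 (SE 0.15, adjusted p = 0.249) after NSC. DESeq2 called Cfi higher after vehicle (adjusted p = 0.0407, 0.0407 to 0.327 over all alternatives).

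**Figure D4:**
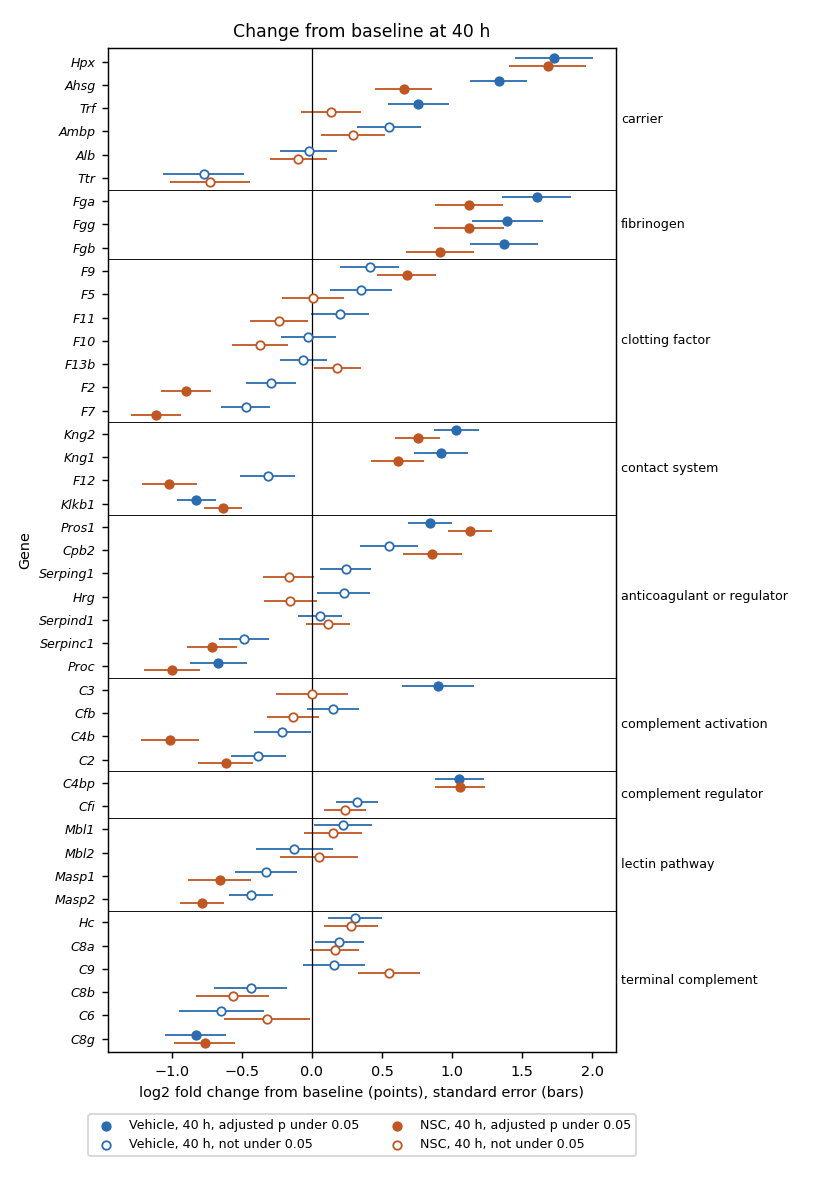
Log2 fold change from baseline (points) with its standard error (bars) for each of the 43 genes, grouped by role, after vehicle (blue) and NSC (orange) at 40 h; filled points had an adjusted p under 0.05. Fibrinogen chains, kininogens, Hpx, Ahsg, Pros1 and C4bp are filled to the right of 0 in both colours, and F2, F7, F12, Serpinc1, C2, C4b, Masp1 and Masp2 are filled to the left in orange alone.

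Whether a gene passed in 1 treatment and not in the other does not show that the treatments differed, so NSC-treated and vehicle-treated mice were compared directly. By edgeR none of the 43 genes had an adjusted p under 0.05, where 0% of all genes tested were called higher and 0.0399% lower. Without NSC replicate 1 these shares were 3.73% and 2.73%, and without vehicle replicate 3 they were 0.11% and 0.608%, and in both fits none of the 43 was called. At an unadjusted p under 0.05 there were 9 genes, all lower in the NSC-treated mice, out of 43, and over all genes tested 10.2% were lower and 9.3% higher by that measure. They were Trf, Ahsg, F2, F7, F12, Serping1, C3, C4b and Masp2. DESeq2, which fits a different model of the spread, called 7 of them lower (F2, F7, Trf, F12, Ahsg, C4b and C3) and none higher, where it called 3.76% of the genes it tested lower and 2.36% higher. In all, 31 of the 43 log2 fold changes were negative and their median was -0.26, against 0.02 over all genes tested. This was not particular to the 43. For 29 other plasma proteins of the liver 22 were negative, with a median of -0.32. For 17 other tested genes of coagulation and fibrinolysis 12 were (median -0.23), and for 8 hepatocyte markers 6 were (median -0.22). For 23 other tested complement genes 10 were, with a median of 0.12. Scaling by library size alone took the median of the 43 to -0.13 and that of all genes to 0.14. Without NSC replicate 1 the median of the 43 was -0.12, and without vehicle replicate 2 it was -0.15. The groups did not overlap for 10 genes that were lower with NSC (those with unadjusted p under 0.05 and F11) and 1 that was higher (Klkb1), where 12.2% and 10.3% of all genes were apart in those directions.

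The lowest p in this comparison was that of C4b, at log2 fold change -0.80, SE 0.20, adjusted p = 0.0949. C3 had the largest difference, at log2 fold change -0.90, SE 0.26, adjusted p = 0.117, with every vehicle-treated liver above every NSC-treated liver. F12 was at log2 fold change -0.70, SE 0.19, adjusted p = 0.108, and F7 at log2 fold change -0.64, SE 0.18, adjusted p = 0.11. Prothrombin and transferrin were both about as far apart, at -0.61 (SE 0.18, adjusted p = 0.12) for F2 and -0.62 (SE 0.22, adjusted p = 0.158) for Trf. Ahsg stood at log2 fold change -0.68, SE 0.20, adjusted p = 0.125. Of 17 alternatives only DESeq2 called any of these 7 genes. Over the alternatives their highest adjusted p lay between 0.387 for C4b and 0.477 for Trf. Under the GC correction 0 of all genes tested were called in this comparison. The fibrinogen chains overlapped between the treatments, with -0.49 (SE 0.24, adjusted p = 0.285) for Fga, -0.46 (SE 0.24, adjusted p = 0.306) for Fgb and -0.28 (SE 0.25, adjusted p = 0.557) for Fgg. Hpx and C4bp lay closest together among the genes that rose, with -0.04 (SE 0.27, adjusted p = 0.945) and 0.00 (SE 0.17, adjusted p = 0.992).

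Other genes of these pathways were followed in lists. Of 17 tested genes of coagulation and fibrinolysis outside the 43, 7 rose and none fell in each treatment, against 12.7% of all genes higher after vehicle and 18.2% after NSC. Fgl1, which encodes a liver-secreted relative of fibrinogen, was at 611, 731 and 606 CPM in the resection specimens, 2073, 2360.5 and 3221 CPM after vehicle and 2882, 2575 and 2048 CPM after NSC (log2 fold change 1.97, SE 0.22, adjusted p = 0.00014 after vehicle, and log2 fold change 1.95, SE 0.22, adjusted p = 0.000109 after NSC). Serpina10, for the inhibitor that acts on factor Xa with protein Z, was at 262, 347 and 306 CPM in the resection specimens, 626, 839.9 and 1158 CPM after vehicle and 749, 815 and 552 CPM after NSC, a rise of 1.52 (SE 0.24, adjusted p = 0.00113) and 1.21 (SE 0.24, adjusted p = 0.00262). Thrombomodulin, the endothelial receptor through which thrombin activates protein C, was scarce, with Thbd at 2.69, 2.35 and 1.22 CPM in the resection specimens, 10.6, 13.4 and 8.42 CPM after vehicle and 23.4, 6.59 and 9.12 CPM after NSC (log2 fold change 2.37, SE 0.49, adjusted p = 0.00845 after vehicle, and log2 fold change 2.64, SE 0.50, adjusted p = 0.00362 after NSC). Plat, for tissue plasminogen activator, was at 0.284, 0.397 and 0.33 CPM in the resection specimens, 2.95, 2.62 and 1.59 CPM after vehicle and 2.43, 0.611 and 0.587 CPM after NSC (log2 fold change 2.81, SE 0.56, adjusted p = 0.00419 after vehicle, and log2 fold change 1.85, SE 0.57, adjusted p = 0.0251 after NSC), and its call after NSC was lost under the GC correction and without baseline replicate 1, baseline replicate 3 or NSC replicate 1 (adjusted p up to 0.157). Plg, for plasminogen, did not pass, at -0.01 (SE 0.18, adjusted p = 0.972) and -0.40 (SE 0.18, adjusted p = 0.106). Of 5 genes of the vitamin K cycle and of clotting factor export none passed after vehicle, and after NSC only Vkorc1l1 did (log2 fold change 0.54, SE 0.16, adjusted p = 0.022, and 0.13 under the GC correction), a call also lost without baseline replicate 1, baseline replicate 3 or NSC replicate 2 (adjusted p up to 0.528). Ggcx, the carboxylase of the vitamin K-dependent factors, was 0.27 (SE 0.14, adjusted p = 0.192) after vehicle and -0.24 (SE 0.14, adjusted p = 0.214) after NSC, and Vkorc1, which recycles vitamin K, was -0.17 (SE 0.15, adjusted p = 0.456) and -0.31 (SE 0.15, adjusted p = 0.137).

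Of 23 tested complement genes outside the 43, 2 rose and 4 fell after vehicle, and 5 rose and 4 fell after NSC. Over all genes 12.7% rose and 11% fell after vehicle, and 18.2% and 16.5% after NSC, so these shares lay near the background. C1ra, a protease of the C1 complex, fell in both (log2 fold change -0.52, SE 0.16, adjusted p = 0.0322 after vehicle, and log2 fold change -0.69, SE 0.16, adjusted p = 0.00568 after NSC). The vehicle call was lost without any baseline liver, vehicle replicate 1 or vehicle replicate 3 (adjusted p up to 0.115). Its paralog C1rb was -0.48 (SE 0.23, adjusted p = 0.149) and -1.32 (SE 0.24, adjusted p = 0.00155). Cfd, for factor D, which is made mainly in fat, went from 1.07, 3.24 and 3.43 CPM at baseline to 0.626, 0.311 and 0.258 CPM after vehicle and 0.42, 0.0679 and 0.0391 CPM after NSC, and passed in both (adjusted p = 0.0121 and 0.00243), though not after vehicle without vehicle replicate 2 or 3 (adjusted p up to 0.0553). Cd59a, which blocks the membrane attack complex on cells, fell after vehicle (log2 fold change -0.86, SE 0.19, adjusted p = 0.00646) and was -0.46 (SE 0.19, adjusted p = 0.0738) after NSC. Among 29 other plasma proteins of the liver, 5 rose and 6 fell after vehicle, and 2 rose and 10 fell after NSC. Hgfac, for the protease that activates hepatocyte growth factor, was at 215, 310.2 and 267 CPM in the resection specimens, 128, 185 and 125 CPM after vehicle and 77.3, 69.2 and 75.4 CPM after NSC (log2 fold change -0.85, SE 0.19, adjusted p = 0.00773 after vehicle, and log2 fold change -1.83, SE 0.20, adjusted p = 7.85e-05 after NSC). Igfals, which holds IGFs in plasma, fell in both, with log2 fold changes of -0.92 (SE 0.17, adjusted p = 0.00311) and -1.33 (SE 0.18, adjusted p = 0.000279). Itih3, which binds hyaluronan, rose, 1.43 (SE 0.25, adjusted p = 0.0022) and 0.76 (SE 0.25, adjusted p = 0.0337), the latter not without any baseline liver, NSC replicate 1 or NSC replicate 2 (adjusted p up to 0.122). Serpina1d, an alpha-1-antitrypsin gene that shares reads with close paralogs, fell, -0.90 (SE 0.22, adjusted p = 0.0129) and -1.21 (SE 0.23, adjusted p = 0.00186).

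Markers of the cells in the tissue moved as well. Of 8 hepatocyte markers 3 fell after vehicle and 5 after NSC, and none rose. For this and the marker counts below, 12.7% of all genes tested rose and 11% fell after vehicle. After NSC 18.2% rose and 16.5% fell, so counts in the 2 treatments are not on the same footing. Kupffer cell and macrophage markers summed to 152 to 223 CPM at baseline, 149 to 272 CPM after vehicle and 489, 295 and 311 CPM after NSC, with 2 of 8 higher after vehicle and 5 of 8 after NSC. Cholangiocyte markers summed to 37.8 to 40.6 CPM, 76.0 to 114 CPM and 79.0 to 121 CPM, with 4 and 3 of 5 higher. Most of each sum was Spp1, with means of 33.2, 73.2 and 84.3 CPM at baseline, after vehicle and after NSC. The others were scarce and did not follow it after NSC. In the same order, Krt19 had means of 0.935, 3.93 and 1.85 CPM and Krt7 0.606, 4.14 and 2.02 CPM. Means of Sox9 were 2.98, 7.34 and 5.34 CPM, and those of Epcam 1.11, 0.816 and 0.924 CPM. Neutrophil markers summed to 2.11 to 7.14 CPM at baseline, 8.01 to 15.8 CPM after vehicle and 10.9 to 17.5 CPM after NSC. Markers of platelets, which carry some of these proteins, summed to at most 6.60 CPM in any liver. Endothelial markers summed to 223 to 242 CPM at baseline, 143 to 224 CPM after vehicle and 261, 147 and 162 CPM after NSC, and stellate cell markers to 189 to 229 CPM, 267 to 293 CPM and 379, 232 and 250 CPM. NSC replicate 1 was the highest of all livers in the sums of macrophage, endothelial and stellate cell markers. Among erythroid markers Alas2, for the first enzyme of heme synthesis in red cell precursors, fell from 152 CPM on average at baseline to 42.7 CPM after vehicle and 50.1 CPM after NSC (adjusted p = 0.00861 and 0.0105), and the 4 globin genes passed in neither comparison (adjusted p of at least 0.126). The part of these cell types in the changes of the secreted protein genes was not tested.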

How the data were processed

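Liver tissue in 9 samples, 3 per group, was profiled by RNA-Seq of polyadenylated RNA with strand-specific libraries. Per the labels and the study's methods, reads were aligned with STAR 2.6.1, run inside MAP-RSeq, and assigned to genes by featureCounts (Subread 1.5.1). The authors deposited the raw counts of each library, with no replicates pooled. The deposited FPKM values follow from the counts, each gene's length and the total of its library (largest relative difference on recomputing 4.96e-10). The methods name a human reference build, but identifiers in the table are mouse ones, and 42462 of them are in the mouse GENCODE M21 annotation (GRCm38); 28 of the 43 genes have the same start and end there. The labels place the first dose 12 h before surgery and the methods 1 day before. The identifier deposited as Klkb1 carries another name, Gm45753, in GENCODE M21.

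The analysis used R 4.3.3 and edgeR 4.0.16 (TMM factors, filterByExpr, robust quasi-likelihood fit of all 9 libraries with the group as the only term) and Benjamini-Hochberg adjustment over 15024 genes. The SE was taken as the absolute log2 fold change over the root of its F statistic. FPKM served only for levels between genes. The share of reads was tested by exact permutation with SciPy 1.17.1. The procedure was tested on simulated data. Python 3.11.15, pandas 2.3.3 and matplotlib 3.10.9 served for tables and plots. Within each group no library duplicated another (chi-square per gene at least 24.4), and pairs from different groups were not checked in this way. It is not stated whether same-numbered vehicle samples at 0 h and 40 h came from 1 mouse, and the p-values measure the spread between these livers. NSC-treated and vehicle-treated mice were different animals.

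The 43 genes and the other lists were chosen with earlier results of these data known. Values per liver are given for Alb, Ttr, Fga, Fgb, Fgg, F2, F7, Serpinc1, Proc, C3, Hc and Mbl2 and for each further gene with an adjusted p under 0.05 in any comparison. From each other pathway list up to 4 genes with the smallest adjusted p under 0.05 were named, together with Plg, Vkorc1, Ggcx and, as a paralog of C4b, C4a. Alternatives were DESeq2 1.42.0, RLE factors, library size only, TMM factors without the 43 genes, all genes with at least 1 count, a block for the replicate number, a fit of only the 2 groups compared, a loess correction for GC content (span 0.5, longest GENCODE M21 transcript, known for 99.2% of genes tested), a log2 fold change beyond 1.5, and each library left out in turn.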

Additional observations from a re-analysis of the deposited data

How the results depend on the processing

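With 3 livers per group, the effect of depth was not examined. After vehicle, genes called lower numbered 3 in the reported fit, 7 with DESeq2, 5 with library size only, 5 with TMM factors without the 43 genes, 6 with only the 2 groups compared, 6 with the replicate block, 7 with the GC correction, 0 beyond a log2 fold change of 1.5, and 1 to 7 with 1 library left out. Of all genes tested, 11% were called lower in the reported fit, 13.8% with DESeq2 and 10% with library size only. The share was 11.8% with TMM factors without the 43 genes, 14.1% with only the 2 groups compared and 11.2% with the replicate block. It was 16.6% with the GC correction, 2.19% beyond 1.5 and 6.77% to 13.7% with 1 library left out. Genes called higher after vehicle numbered 2 beyond 1.5, and after NSC 6 with the GC correction and 1 beyond 1.5, where 0 were lower. Of all genes, 5.03%, 12.8% and 5.38% were called higher there. In the direct comparison DESeq2 called 7 lower, where it called 3.76% of the genes it tested lower. The median after vehicle was 0.052 with the GC correction, where that of all genes tested was -0.09, and 0.073 to 0.24 with 1 library left out. With library size only the median was 0.15 after NSC and -0.13 in the direct comparison, which gave -0.35 to -0.12 with 1 library left out. None of the 59 called values of the 43 genes and of the named pathway genes changed direction in any alternative. Cell type markers, Alas2 among them, were not part of that check. Over 59 called values, the GC correction lost 7 and library size only lost 2, and DESeq2, RLE factors, TMM factors without the 43 genes, all genes with at least 1 count, only the 2 groups compared and the replicate block lost none. The replicate block also called Ttr, F7 and C6 lower after vehicle (adjusted p = 0.0433, 0.0250 and 0.0187) and Ttr and C8b lower after NSC (adjusted p = 0.0330 and 0.0361). Leaving out baseline replicate 3 lost 14, baseline replicate 1 lost 13 and baseline replicate 2 lost 9. Of 9 pairs of libraries with the same number, only those of vehicle at 0 h with vehicle at 40 h could come from 1 mouse. Their correlations were 0.08, 0.07 and -0.05, too few to decide this, and the numbers were not taken as pairs. The pairs with NSC-treated mice came from different animals. One of these, vehicle with NSC replicate 1, had the only correlation over 0.1 (0.13). In 13 of 18 choices, those with NSC-treated mice included, a library correlated best with its own number.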
